A study of Homo sapiens with 12 samples.

Results

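The comparison described here is the second of 2 hairpins against p53, shRNA 2, set against a scramble hairpin in LMSU cells. It rests on 4 of the 12 libraries of the study, chosen by their labels: 2 shRNA 2 libraries and 2 scramble libraries. LMSU is a human line labelled as gastric cancer and as carrying the p53 variant R175H, a missense change in the DNA-binding domain. The study measured messenger RNA in these cells after the variant protein was removed by knockout or by knockdown.

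The fit took in the 8 libraries of the knockdown arm, 2 each of shRNA 2, shRNA 1, scramble and vector. All 8 came from cells given doxycycline, an antibiotic, so the controls shared that exposure with the hairpin cells. The labels give p53-R175H as lost in the shRNA 2 and shRNA 1 libraries and as kept in the scramble and vector libraries. The 4 libraries of the knockout arm, 2 p53 knockout and 2 knockout control, had no doxycycline and were left out of the fit. The sources used here give neither the hairpin sequences nor the promoter that drives them, nor whether a line was 1 clone. Nor do the labels say whether the replicates came from separate cultures, so the p-values measure only the spread between these libraries, which may be technical.

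The shRNA 2 libraries held 13106727 and 14001411 counts over genes, against 12971347 and 13873470 counts in the scramble libraries, and the 8 libraries ran between 9738094 and 16823246 counts. Of 25435 genes in the table, 12980 passed the filter on low counts and were tested. Levels are CPM, read counts scaled to a common library size with normalisation over the 8 libraries. They take no account of gene length, so they are compared here only within a gene. The biological coefficient of variation, the spread between libraries of a group beyond counting error, was 3.08% over the 8 libraries. Replicates of every group differed by more than the sampling noise of counts and were kept apart.

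Gastric and intestinal markers were at or near 0, and epithelial markers were mixed. EPCAM, CDH1, KRT19, CLDN3, ESRP1 and ELF3, which mark epithelium, reached at most 4 counts in any of the 8 libraries, and GRHL2 was at 0. Other epithelial markers had reads in every library: MUC1 had 45 to 114 counts, ESRP2 24 to 50, CLDN7 14 to 49, KRT7 11 to 23, CLDN4 6 to 19 and OCLN 2 to 15. KRT8 and KRT18, keratins that other cells also use, had at least 1939 and 2218 counts. Of the 15 epithelial genes 8 were tested, and the 15 summed to 448 and 447 CPM in the shRNA 2 libraries, against 398 and 366 CPM in the scramble libraries. Of the 8 tested, KRT8 and KRT18 were called higher with shRNA 2 (25%, against 16.7% of all tested genes) and 0 were called lower. In a fit of all 12 libraries 0 were called in either direction. No gastric or intestinal marker passed the filter, and TFF1, TFF2, GKN2 and ATP4A had no count in the 8 libraries, while CLDN18 had 1 to 10. All 21 genes of the fibroblast and mesenchymal list were tested. They summed to 31510 and 31847 CPM in the shRNA 2 libraries, against 32683 and 31649 CPM in the scramble libraries. The endothelial genes CDH5 and TEK and the leukocyte genes CD3E and MS4A1 were at 0, while TIE1 and CD68 were detected. The 10 endothelial genes summed to 113 and 111 CPM in the shRNA 2 libraries, against 146 and 134 CPM in the scramble libraries, with TIE1 the only 1 of 3 tested that changed (log2 fold change ± SE -0.34 ± 0.0543, adjusted p by edgeR = 2.21e-06, and 0.0638 in a fit of all 12 libraries). The 12 leukocyte genes summed to 417 and 435 CPM in the shRNA 2 libraries, against 426 and 409 CPM in the scramble libraries, and neither of the 2 tested was called. The gastric markers thus did not show the labelled tissue at the RNA level, and the epithelial markers did so in part.

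As background, p53 is a transcription factor that, in its normal form, switches on genes that halt the cell cycle, repair DNA or trigger cell death. CDKN1A, which encodes the CDK inhibitor p21, is its best-known target, and MDM2 is the target whose product degrades p53. A missense variant such as R175H loses much of this DNA binding, and the altered protein often accumulates. A short hairpin RNA enters the RNA interference pathway and directs the Argonaute complex to a matching messenger RNA. It can also lower transcripts that match it only in part, and for that reason studies usually use more than 1 hairpin and a scramble control.

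Of the 12980 genes tested, 4091 (31.5%) differed between shRNA 2 and scramble at an adjusted p under 0.05 by edgeR's quasi-likelihood test. Higher levels with shRNA 2 were called for 2162 genes (16.7%) and lower levels for 1929 (14.9%). Most changes were small: 3372 of the called genes moved by less than 1.5-fold, 67 rose at least 2-fold and 113 fell at least 2-fold. The median log2 fold change was 0.32 among the genes that rose, -0.36 among those that fell and 0.0040 over all tested genes. Higher calls were 52.8% of all calls with the normalisation used here and 39.4% when libraries were scaled by their totals only, so the balance of directions rests on the scaling. With totals only 1627 genes were higher and 2505 lower, and list counts under that scaling shift with this balance. In a fit that added the 4 knockout-arm libraries, whose replicates spread more widely, 1034 genes were called, and 1031 of these were among the 4091. Of the 1034, 479 were higher and 555 lower, and list counts from that fit are to be read beside these smaller totals. The shares of 16.7% higher and 14.9% lower are the background for the gene lists below, and a list with shares near them does not stand apart. For list counts over vector the background is 22.7% higher and 24.1% lower. Genes named below whose call was lost in that 12-library fit are given with its adjusted p.

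**Figure D1:**
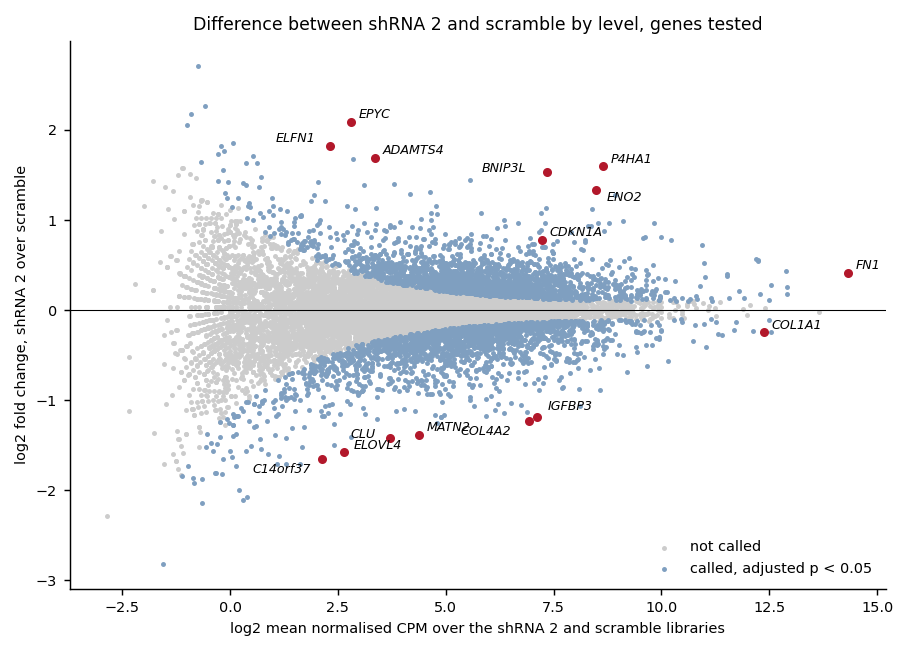
Points are tested genes, placed by their mean level over the shRNA 2 and scramble libraries (log2 CPM, horizontal) and by the log2 fold change of shRNA 2 over scramble (vertical); coloured points are called and 15 genes of the text are labelled. Most called genes lie close to 0, while EPYC at 2.09 and C14orf37 at -1.65 lie far out.

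EPYC and ELFN1 led the increases. EPYC encodes epiphycan, a small leucine-rich proteoglycan known from growth-plate cartilage. It stood at 11.7 and 11.0 CPM in the shRNA 2 libraries, against 2.46 and 2.85 CPM in the scramble libraries. Both shRNA 2 libraries lay well above both scramble libraries, and the shRNA 1 libraries (3.69 and 4.17 CPM) and vector libraries (1.80 and 2.18 CPM) were low as well. The log2 fold change was 2.09 ± 0.185 over scramble (± SE, here and below; adjusted p = 8.51e-13) and 2.49 over vector (adjusted p = 2.09e-15). ELFN1 encodes a leucine-rich repeat membrane protein known from synapses of interneurons. It had 7.74 and 7.72 CPM in the shRNA 2 libraries, against 2.23 and 2.14 CPM in the scramble libraries, without overlap. The shRNA 1 libraries, at 4.12 and 4.68 CPM, were intermediate, and the vector libraries, at 3.75 and 2.24 CPM, differed from each other. The log2 fold change of ELFN1 was 1.82 ± 0.221 over scramble (adjusted p = 4.55e-09) and 1.40 over vector (adjusted p = 1.06e-07). Placing both shRNA 2 libraries above both scramble libraries is common by itself: 32.5% of tested genes did so, and 31% had both below. For genes named for the size of their change, such a lack of overlap was also a condition of being named.

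CDKN1A, the gene for p21, was higher with shRNA 2. It was measured at 184 and 198 CPM in the shRNA 2 libraries, against 109.9 and 113 CPM in the scramble libraries. The shRNA 1 libraries were at 80.3 and 85.6 CPM and the vector libraries at 66.9 and 65.3 CPM, so that the shRNA 2 libraries were the highest of the 8 and the vector libraries the lowest. The log2 fold change over scramble was 0.78 ± 0.0516, a 1.71-fold increase (adjusted p = 7.53e-17), and over vector it was 1.53 (adjusted p = 1.36e-27). MDM2 stood at 37.8 and 35.7 CPM in the shRNA 2 libraries, against 40.6 and 39.4 CPM in the scramble libraries, a log2 fold change of -0.12 ± 0.0753 that did not pass the test (adjusted p = 0.224).

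**Figure D2:**
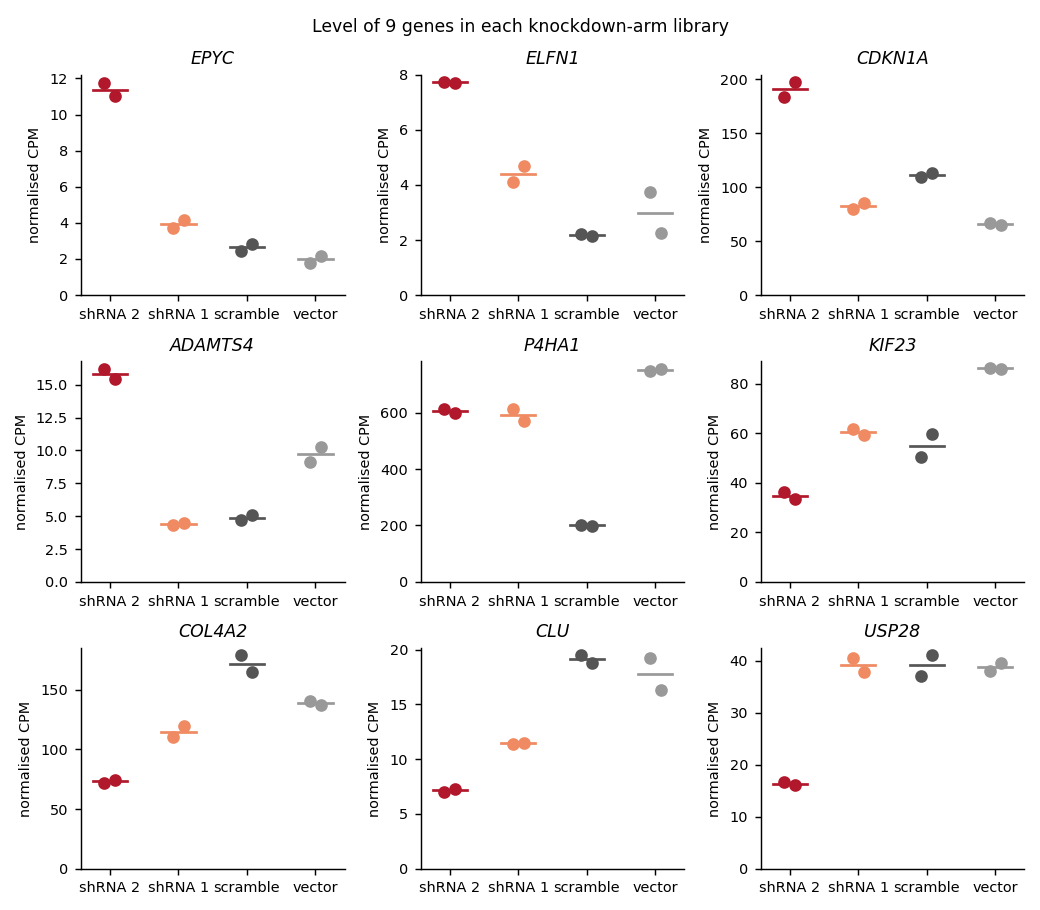
Normalised CPM (vertical, each panel from 0) of 9 genes in each library of the knockdown arm, by group (horizontal); points are libraries and bars group means. EPYC, ELFN1, CDKN1A and ADAMTS4 are highest with shRNA 2, while P4HA1 with shRNA 2 lies near shRNA 1 and only scramble is low, at 201 and 199 CPM.

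Genes of the G2 phase and mitosis were lower with shRNA 2. Of 38 tested members of the list, 30 fell (78.9%, against 14.9% of all tested genes), none rose, and the median log2 fold change was -0.30. Loss of 1 library left between 24 and 30 falling members, and the 12-library fit 12. KIF23, a kinesin of the central spindle, had 36.3 and 33.4 CPM in the shRNA 2 libraries, against 50.4 and 59.6 CPM in the scramble libraries. Both shRNA 2 libraries were below both scramble libraries, and the change was -0.66 ± 0.0756 on the log2 scale (adjusted p = 1.01e-09). DLGAP5, a spindle protein, changed by -0.61 ± 0.0681 (adjusted p = 6.31e-10), and HMMR, which organises spindle microtubules, by -0.62 ± 0.079 (adjusted p = 1.45e-08). TPX2, an activator of Aurora A kinase, stood at 129 and 132 CPM in the shRNA 2 libraries, against 168 and 179 CPM in the scramble libraries, a log2 fold change of -0.41 ± 0.0492. CCNB1, the mitotic cyclin B1, stood at 58.8 and 55.0 CPM in the shRNA 2 libraries, against 76.1 and 81.8 CPM in the scramble libraries, a log2 fold change of -0.48 ± 0.0616. TOP2A, which untangles sister DNA, changed by -0.37 ± 0.0459 (adjusted p = 1.02e-08, and 0.141 in the 12-library fit). Over vector, where 22.7% of tested genes rose and 24.1% fell, all 38 members fell, with a median of -1.0. Both comparisons share the shRNA 2 libraries. The scramble libraries were themselves below vector for CCNB1, HMMR and DLGAP5, at log2 fold changes of -0.62, -0.41 and -0.42. For these genes part of the fall over vector therefore lay between the controls.

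Many promoters of these genes are known to hold the cell cycle genes homology region, through which the DREAM complex, a repressor complex linked to p21, acts. The letters TTTGAA, its common core, were searched on both strands of the 250 bases before the gene start in RefSeq promoters of build GRCh38.p14, available for 10379 of the 12980 tested genes. They occurred in 870 of these promoters (8.38%), in 18 of the 31 available for the list (58.1%) and in 15 of the 25 available for members that fell (60.0%). The promoters of 3 members with strong falls are shown 5′ to 3′ in the direction of the gene, with each match in capitals (TTCAAA where it lies on the other strand). The KIF23 promoter spans chr15:69414099-69414348 on the plus strand, that of HMMR chr5:163460382-163460631 on the plus strand and that of DLGAP5 chr14:55191586-55191835 on the minus strand. KIF23 has 1 match, which starts 55 bases before the gene start, and HMMR has 2, which start 28 and 22 bases before it. A match describes the letters and does not show that a factor binds there.
KIF23: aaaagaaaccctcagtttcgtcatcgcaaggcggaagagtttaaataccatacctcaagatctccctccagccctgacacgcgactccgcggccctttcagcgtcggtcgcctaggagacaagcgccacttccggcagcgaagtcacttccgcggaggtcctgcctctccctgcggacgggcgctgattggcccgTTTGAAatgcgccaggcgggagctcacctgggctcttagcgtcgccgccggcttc
HMMR: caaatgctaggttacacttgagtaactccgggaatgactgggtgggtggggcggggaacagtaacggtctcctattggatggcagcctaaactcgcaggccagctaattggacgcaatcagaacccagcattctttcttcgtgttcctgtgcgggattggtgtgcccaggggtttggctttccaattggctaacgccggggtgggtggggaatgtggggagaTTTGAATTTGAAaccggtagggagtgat
DLGAP5: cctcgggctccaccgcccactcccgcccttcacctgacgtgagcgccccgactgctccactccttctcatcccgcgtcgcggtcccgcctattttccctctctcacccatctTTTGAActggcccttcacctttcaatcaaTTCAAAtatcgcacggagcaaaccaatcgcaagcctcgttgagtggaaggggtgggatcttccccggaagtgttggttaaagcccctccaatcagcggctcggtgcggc

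Genes of the G1/S transition and of replication did not share this direction. Of 31 tested, 8 rose (25.8%, against 16.7% of all genes) and none fell, with a median of 0.14. With scaling by totals only, 6 rose and 2 fell, beside 1627 and 2505 of all genes. MCM4, a subunit of the replicative helicase, had 114 and 109 CPM in the shRNA 2 libraries, against 74.5 and 76.4 CPM in the scramble libraries, a log2 fold change of 0.57 ± 0.0559 (adjusted p = 2.04e-11). FEN1, a flap endonuclease, had 10.2 and 10.3 CPM in the shRNA 2 libraries, against 4.61 and 4.77 CPM in the scramble libraries, with no overlap and a log2 fold change of 1.12 ± 0.163 (adjusted p = 3.08e-07). CDT1, which licenses origins, changed by 0.44 ± 0.0679 (adjusted p = 1.22e-06, and 0.0982 in the 12-library fit), and the polymerase gene POLE by 0.42 ± 0.0741 (adjusted p = 1.25e-05). Over vector, 24 of the 31 fell and 3 rose, with a median of -0.60, so the direction of this list depended on the control. Enzymes that supply nucleotides included RRM1 and RRM2, the ribonucleotide reductase subunits, and TYMS, thymidylate synthase. Among 27 tested genes of nucleotide and folate synthesis 7 rose (25.9%) and 3 fell (11.1%), with a median of 0.035. With scaling by totals only, 6 rose and 7 fell, under the same shift of all genes. RRM1 had 161 and 156 CPM in the shRNA 2 libraries, against 87.2 and 94.2 CPM in the scramble libraries, a log2 fold change of 0.80 ± 0.0522. The values for RRM2 were 82.3 and 77.0 CPM in the shRNA 2 libraries, against 52.6 and 51.2 CPM in the scramble libraries and its log2 fold change 0.62 ± 0.0624. TYMS changed by 0.68 ± 0.0818 (adjusted p = 3.74e-09), and PPAT, an enzyme of purine synthesis, by -0.84 ± 0.11 (adjusted p = 2.64e-08).

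Cyclins, CDKs and their inhibitors moved in both directions: 7 of 31 rose (22.6%) and 9 fell (29.0%), against 16.7% and 14.9% of all genes, with a median of -0.055. Over vector 3 rose (9.68%) and 15 fell (48.4%), against 22.7% and 24.1% of all genes. CDKN2C, which encodes the inhibitor p18, had 27.9 and 30.6 CPM in the shRNA 2 libraries, against 45.1 and 42.8 CPM in the scramble libraries, a log2 fold change of -0.59 ± 0.079 (adjusted p = 5.55e-08). CCND1, cyclin D1, stood at 355 and 347 CPM in the shRNA 2 libraries, against 442 and 452 CPM in the scramble libraries, a change of -0.35 ± 0.0421 over scramble (adjusted p = 4.28e-09). Over vector CCND1 was higher, at 0.56 (adjusted p = 2.89e-15), with 236 and 239 CPM in the vector libraries. E2F7, a repressor of E2F target genes, changed by -0.60 ± 0.0593 (adjusted p = 2.08e-11).

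Genes listed as p53 targets did not move as a group. Whether each member, such as CCNG2 or SESN3, is a direct target of p53 was not checked. Of 40 tested, 11 rose (27.5%) and 9 fell (22.5%), against 16.7% and 14.9% of all genes, with a median of 0.034. With scaling by totals only, 9 rose and 12 fell, beside 1627 and 2505 of all genes. CCNG2, an atypical cyclin, had 132 and 136 CPM in the shRNA 2 libraries, against 68.1 and 69.0 CPM in the scramble libraries, and its log2 fold change was 0.97 ± 0.0548 (adjusted p = 2.41e-19). Its 2 shRNA 2 libraries were the highest of the 8. PLK2, a polo-like kinase, had 153 and 149.5 CPM in the shRNA 2 libraries, against 219 and 228 CPM in the scramble libraries, and SESN3, a sestrin that restrains growth signalling, had 10.9 and 10.1 CPM in the shRNA 2 libraries, against 18.0 and 20.9 CPM in the scramble libraries. Both fell, PLK2 by a log2 fold change of -0.56 ± 0.047 (adjusted p = 1.55e-13) and SESN3 by one of -0.90 ± 0.117 (adjusted p = 2.16e-08). DNA repair genes lay near the background, with 5 of 39 rising (12.8%) and 4 falling (10.3%) and a median of 0.046. In the 12-library fit 0 rose and 0 fell. Over vector 3 rose (7.69%) and 19 fell (48.7%), against 22.7% and 24.1% of all genes. ATM, a kinase that signals DNA breaks, changed by 0.49 ± 0.0643 (adjusted p = 3.86e-08, and 0.293 in the 12-library fit).

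Hypoxia genes were higher with shRNA 2 than with scramble. Of 34 tested, 19 rose (55.9%, against 16.7% of all genes) and 5 fell (14.7%), with a median log2 fold change of 0.34. P4HA1, a collagen prolyl hydroxylase subunit, had 613 and 597 CPM in the shRNA 2 libraries, against 201 and 199 CPM in the scramble libraries. The shRNA 1 libraries (613 and 572 CPM) and vector libraries (747 and 754 CPM) were also high, so that scramble stood alone as low. Its log2 fold change was 1.60 ± 0.0443 over scramble (adjusted p = 5.22e-31) and -0.31 over vector (adjusted p = 1.45e-08). BNIP3L, a mitophagy receptor, had 241 and 244 CPM in the shRNA 2 libraries, against 79.8 and 87.8 CPM in the scramble libraries, and vector had 253 and 259 CPM. It changed by 1.53 ± 0.0518 over scramble and by -0.079 over vector, where it was not called (adjusted p = 0.162). AK4, a mitochondrial adenylate kinase, had 71.0 and 67.5 CPM in the shRNA 2 libraries, against 24.9 and 25.7 CPM in the scramble libraries, with 60.5 and 66.4 CPM in the vector libraries.

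The same placement held for several of the largest increases over scramble outside the list. ICK, a ciliary kinase, had 35.4 and 35.6 CPM in the shRNA 2 libraries, against 15.1 and 13.5 CPM in the scramble libraries, with 36.5 and 32.4 CPM in the vector libraries. IFT52, a subunit of the intraflagellar transport complex, had 24.9 and 26.1 CPM in the shRNA 2 libraries, against 9.98 and 10.8 CPM in the scramble libraries, with 25.4 and 21.5 CPM in vector. Neither passed the test over vector (adjusted p = 0.647 for ICK and 0.278 for IFT52). ANKRD37, an ankyrin repeat protein induced by hypoxia, changed by 1.39 ± 0.154 over scramble and -0.018 over vector. PLEKHA7, an adherens junction protein, changed by 1.42 ± 0.23 over scramble (adjusted p = 2.53e-06) and by -0.39 over vector (adjusted p = 0.0609). GULP1, an adaptor for engulfment, was called over both, at 1.41 ± 0.124 over scramble and 0.54 over vector. Over vector, 5 hypoxia genes rose and 21 fell, with a median of -0.24. DDIT4, an inhibitor of mTORC1, was higher over both controls, at 0.97 ± 0.0447 over scramble and 0.25 over vector. NDRG1, a stress-responsive gene, had 1487 and 1540.3 CPM in the shRNA 2 libraries, against 882 and 885 CPM in the scramble libraries, while vector had 2518 and 2498 CPM, the highest of the arm. STC2, a secreted glycoprotein, went the other way within the list at 143 and 149 CPM in the shRNA 2 libraries, against 257 and 245 CPM in the scramble libraries, a log2 fold change of -0.78 ± 0.0476 (adjusted p = 5.11e-18).

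**Figure D3:**
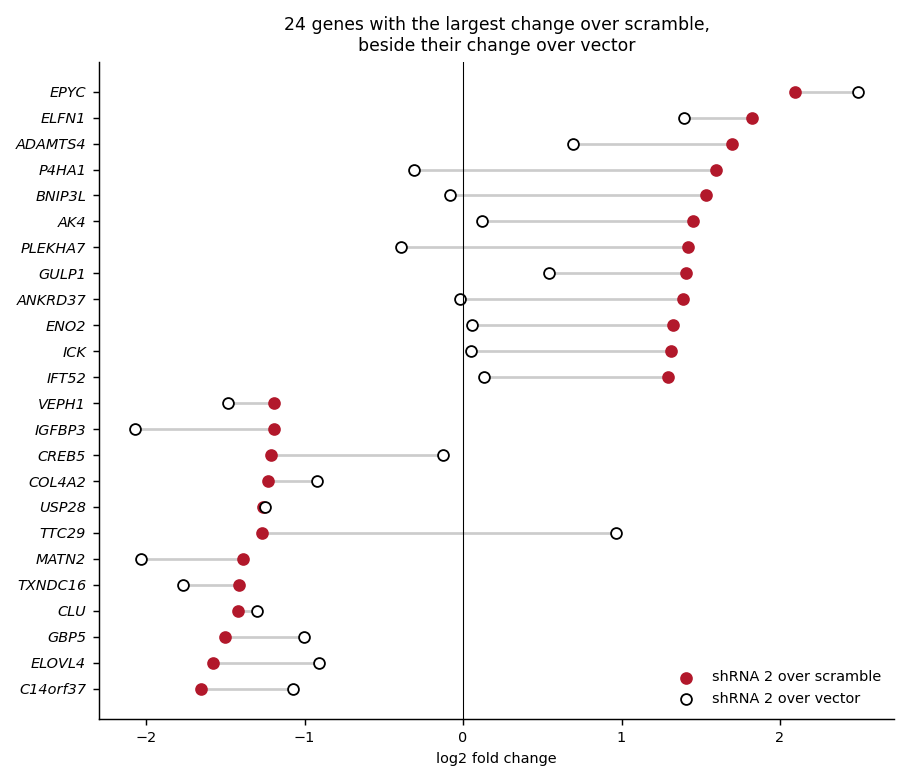
Log2 fold changes of shRNA 2 over scramble (filled) and over vector (open) for the 24 genes with the largest changes over scramble, ordered by their change over scramble; the shRNA 2 libraries are shared. P4HA1, BNIP3L, AK4, ICK and IFT52 stand between 1.29 and 1.60 over scramble and between -0.31 and 0.13 over vector. Genes with opposite signs include TTC29, which is lower over scramble, and P4HA1, BNIP3L, ANKRD37 and PLEKHA7, which are higher over it.

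Hypoxia-inducible factors bind an element with the core ACGTG. Searched on both strands of the same 250-base windows, ACGTG occurred in 2453 of 10379 promoters (23.6%), in 17 of the 28 available for the list (60.7%) and in 12 of the 16 available for members that rose (75.0%). The promoters of P4HA1 at chr10:73096867-73097116 on the minus strand and of AK4 at chr1:65147302-65147551 on the plus strand are shown because both genes were among the largest increases. Capitals mark ACGTG, or CACGT where it lies on the other strand. In P4HA1 the match starts 86 bases before the gene start. In AK4 the 2 matches overlap on opposite strands, starting 93 and 92 bases before it.
P4HA1: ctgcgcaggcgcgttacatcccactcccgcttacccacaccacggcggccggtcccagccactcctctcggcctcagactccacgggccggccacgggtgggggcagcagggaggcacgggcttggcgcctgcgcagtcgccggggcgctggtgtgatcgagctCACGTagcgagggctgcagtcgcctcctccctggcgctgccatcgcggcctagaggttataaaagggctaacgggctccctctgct
AK4: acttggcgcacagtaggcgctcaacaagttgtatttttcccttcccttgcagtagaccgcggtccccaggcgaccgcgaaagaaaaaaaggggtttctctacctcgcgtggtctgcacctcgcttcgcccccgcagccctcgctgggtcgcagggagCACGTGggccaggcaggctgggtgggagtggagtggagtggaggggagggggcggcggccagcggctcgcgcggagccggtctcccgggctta

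Glycolysis genes were also higher with shRNA 2 than with scramble. Of 23 tested, 20 rose (87.0%) and 1 fell (4.35%) over scramble, with a median of 0.38. In the 12-library fit 10 rose, beside 479 of all genes. ENO2, an enolase, had 503 and 520.2 CPM in the shRNA 2 libraries, against 210.4 and 198 CPM in the scramble libraries, with 490.4 and 492 CPM in vector. ENO2 changed by 1.33 ± 0.0445 over scramble (adjusted p = 1.24e-27). SLC2A3, the glucose transporter GLUT3, had 1296 and 1299 CPM in the shRNA 2 libraries, against 735 and 744 CPM in the scramble libraries, a log2 fold change of 0.81 ± 0.0386. PGK1, phosphoglycerate kinase, had 378 and 383 CPM in the shRNA 2 libraries, against 230.1 and 216 CPM in the scramble libraries, a change of 0.77 ± 0.0442, while vector stood at 576 and 569 CPM. SLC16A3, a lactate exporter, changed by 0.75 ± 0.0464, and ALDOA, an aldolase, by 0.53 ± 0.0395 (adjusted p = 4.95e-15, and 0.0566 in the 12-library fit). Over vector the list again had the other direction, with 2 rising and 16 falling and a median of -0.32. SLC2A3 and SLC16A3 were exceptions, at 0.29 and 0.36 over vector. TXNIP, a glucose-responsive arrestin that restrains glucose uptake, was high with shRNA 2 at 1211 and 1204 CPM in the shRNA 2 libraries, against 609 and 622 CPM in the scramble libraries. The change was 0.97 ± 0.04 over scramble (adjusted p = 3.19e-24) and 1.13 over vector. With it rose 3 others of 11 tested genes of its list, so that 36.4% rose, against 16.7% of all genes, and none fell. ARRDC3, an arrestin-domain gene, changed by 0.50 ± 0.0542 and the repressor gene MXD1 by 0.62 ± 0.142.

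**Figure D4:**
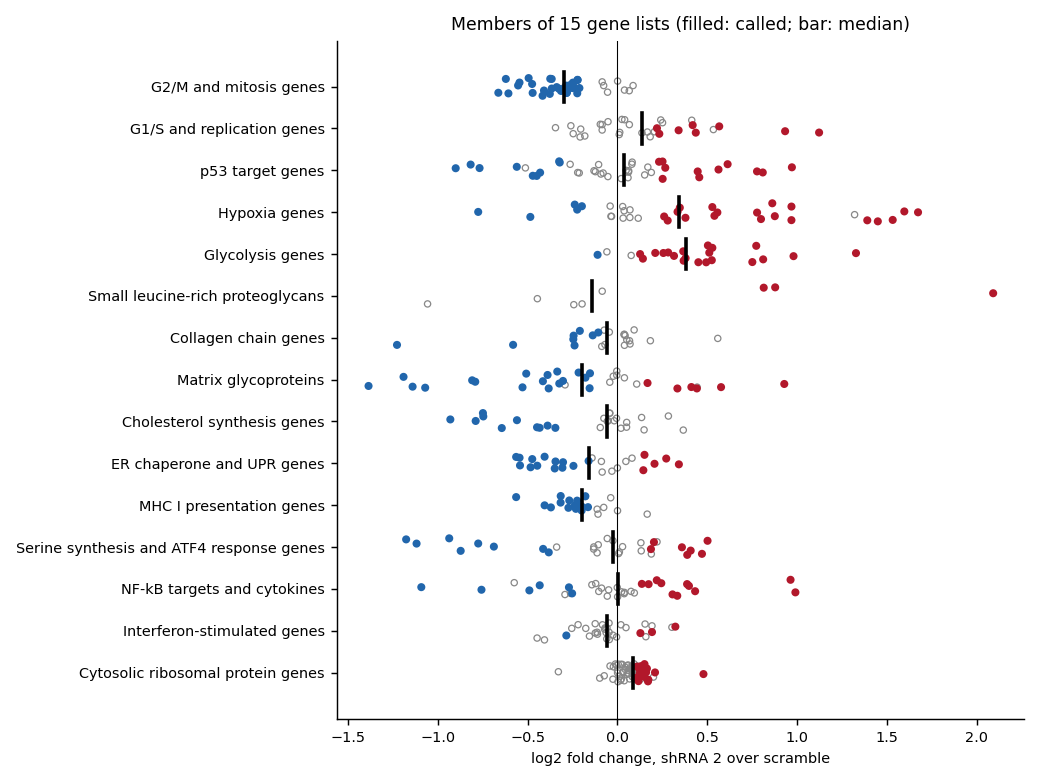
Log2 fold change of shRNA 2 over scramble (horizontal) for each tested member of 15 gene lists (vertical); filled points are called, red higher and blue lower, open points are not called, and black bars are medians. G2/M and mitosis genes lie left of 0 with a median of -0.30, and glycolysis genes right of 0 with a median of 0.38.

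EPYC belongs to the small leucine-rich proteoglycans, which organise collagen fibrils. Of 16 listed members 8 passed the filter, and 3 of these rose (37.5%) and none fell, while the median of the 8 was -0.14. The members that rose besides EPYC were DCN, decorin, and LUM, lumican. DCN had 513 and 534 CPM in the shRNA 2 libraries, against 289.8 and 280.4 CPM in the scramble libraries, with 273 and 266 CPM in shRNA 1 and 63.3 and 59.7 CPM in vector. LUM had 1019.6 and 993 CPM in the shRNA 2 libraries, against 581 and 564 CPM in the scramble libraries, with 486 and 483 CPM in shRNA 1 and 212 and 214 CPM in vector. For both, the shRNA 2 libraries were the highest of the arm, without overlap. DCN changed by 0.88 ± 0.0437 over scramble (adjusted p = 2.43e-21) and 3.09 over vector, and LUM by 0.81 ± 0.04 (adjusted p = 1.56e-21) and 2.24. Both also stand in the fibroblast and mesenchymal list. Of its 21 genes 8 rose (38.1%, against 16.7% of all genes) and 4 fell (19%, against 14.9%), with a median of -0.025. There THY1, a surface glycoprotein, fell, with 42.7 and 47.2 CPM in the shRNA 2 libraries, against 92.6 and 82.6 CPM in the scramble libraries (log2 fold change -0.96 ± 0.0663, adjusted p = 2.76e-16). PRRX1, a mesenchymal homeobox factor, changed by 0.50 ± 0.0733 (adjusted p = 3.33e-07). The part of the cell mixture in these changes was not tested. In such bulk libraries fewer cells of a type and less RNA per cell cannot be told apart.

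ELFN1 belongs to the leucine-rich repeat adhesion genes, of which 10 were tested. It alone rose (10%, below the 16.7% of all genes), 4 fell (40%, against 14.9%), and the median was -0.24. Its relative ELFN2 went the other way, with 11.7 and 11.5 CPM in the shRNA 2 libraries, against 16.0 and 16.3 CPM in the scramble libraries and a log2 fold change of -0.47 ± 0.115 (adjusted p = 0.00107). LRIG1, a brake on growth factor receptors, changed by -0.34 ± 0.0774 (adjusted p = 0.000503).

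Among collagens and matrix glycoproteins, falls outnumbered rises over scramble. Of 22 collagen chains 8 fell (36.4%, against 14.9% of all genes) and none rose, with a median of -0.058. The 12-library fit had 2 falling, beside 555 of all genes. Over vector the direction turned, with 11 rising and 7 falling and a median of 0.18. COL4A2, a basement membrane collagen, had 71.9 and 74.8 CPM in the shRNA 2 libraries, against 179 and 164 CPM in the scramble libraries. The shRNA 2 libraries were the lowest of the 8, and the log2 fold change was -1.23 ± 0.0559 over scramble (adjusted p = 1.26e-22) and -0.92 over vector (adjusted p = 1.04e-18). An antisense gene lies at this locus, and the sources used here do not say whether counting used strand. COL4A1, its partner chain, changed by -0.58 ± 0.0707 over scramble (adjusted p = 5.08e-09) but was higher over vector, at 0.23. The fibrillar chains are far more abundant: COL1A1 had 4746 and 5043 CPM in the shRNA 2 libraries, against 6008 and 5601 CPM in the scramble libraries. COL1A1 changed by -0.25 ± 0.0398 (adjusted p = 2.54e-06, and 0.170 in the 12-library fit) and COL1A2 by -0.24 ± 0.0356 (adjusted p = 5.01e-07, and 0.118 in that fit).

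Among 32 matrix glycoproteins 18 fell (56.2%) and 6 rose (18.8%), with a median of -0.20, and over vector 15 fell and 11 rose. IGFBP3, a secreted binding protein of insulin-like growth factors, had 83.5 and 84.8 CPM in the shRNA 2 libraries, against 193 and 192 CPM in the scramble libraries, with 349 and 358 CPM in vector. It changed by -1.19 ± 0.052 over scramble (adjusted p = 3.11e-23) and -2.07 over vector. EFEMP1, a fibulin, had 51.4 and 50.6 CPM in the shRNA 2 libraries, against 114 and 110.5 CPM in the scramble libraries, and TNC, tenascin C, had 32.9 and 32.3 CPM in the shRNA 2 libraries, against 64.8 and 72.1 CPM in the scramble libraries. Their log2 fold changes were -1.14 ± 0.0582 and -1.07 ± 0.0712. MATN2, a matrilin, had 11.6 and 11.5 CPM in the shRNA 2 libraries, against 28.9 and 31.4 CPM in the scramble libraries, the lowest levels of the arm, and changed by -1.39 ± 0.0998 (adjusted p = 1.15e-15). SPARC, a collagen-binding protein, changed by -0.42 ± 0.0365 over scramble and by -0.04 over vector, where it was not called (adjusted p = 0.388). Among those that rose, FBN1, fibrillin 1, had 444 and 429 CPM in the shRNA 2 libraries, against 224 and 234 CPM in the scramble libraries, while vector had 412 and 410.2 CPM, and its change was 0.93 ± 0.0448 over scramble and 0.085 over vector (adjusted p = 0.103). FN1, fibronectin, had the largest gain in CPM of any gene by the naming rule, with 24072 and 23152 CPM in the shRNA 2 libraries, against 17281 and 18226 CPM in the scramble libraries and a log2 fold change of 0.41 ± 0.0335 (adjusted p = 6.25e-14, and 0.106 in the 12-library fit).

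Proteases of the matrix moved in both directions. Among 20 ADAM and ADAMTS genes 7 rose (35.0%) and 7 fell (35.0%), against 16.7% and 14.9% of all genes. ADAMTS4, an aggrecan-cleaving protease, had 16.2 and 15.4 CPM in the shRNA 2 libraries, against 4.68 and 5.06 CPM in the scramble libraries, with 4.30 and 4.47 CPM in shRNA 1 and 9.15 and 10.3 CPM in vector. The shRNA 2 libraries were the highest, and the change was 1.69 ± 0.146 over scramble (adjusted p = 3.35e-13) and 0.69 over vector (adjusted p = 6.62e-06). ADAM19, a membrane sheddase, changed by 1.0 ± 0.059 (adjusted p = 1.27e-18), while ADAM17, the sheddase of TNF, had 46.4 and 44.4 CPM in the shRNA 2 libraries, against 70.5 and 74.9 CPM in the scramble libraries and changed by -0.68 ± 0.0649 (adjusted p = 8.33e-12). ADAM9 and ADAM12, of the same family of membrane proteases, also fell, at -0.49 ± 0.041 and -0.62 ± 0.061. Of 22 metalloproteases, plasminogen activators and inhibitors 7 rose (31.8%) and 5 fell (22.7%). Over vector 14 rose (63.6%) and 4 fell (18.2%), with a median of 0.39. MMP14, a membrane-bound collagenase, had 5612 and 5842 CPM in the shRNA 2 libraries, against 4023 and 3827 CPM in the scramble libraries, a log2 fold change of 0.55 ± 0.0367 (adjusted p = 1.16e-16). PLAU, the urokinase activator, changed by 0.49 ± 0.051 (adjusted p = 7.11e-11), and SERPINB2, an inhibitor of it, by 0.91 ± 0.108 (adjusted p = 3.21e-09). TIMP3 rose and TIMP2 fell, at 0.32 ± 0.0387 and -0.31 ± 0.0395; both are inhibitors of metalloproteases.

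Receptors for matrix and growth signals were mixed as well. Of 26 integrin and laminin genes 5 rose (19.2%, near the 16.7% of all genes) and 9 fell (34.6%, against 14.9%). In the 12-library fit 0 rose and 5 fell. Over vector 10 rose (38.5%) and 8 fell (30.8%), against 22.7% and 24.1% of all genes. ITGA4, the integrin alpha 4 chain, had 22.6 and 24 CPM in the shRNA 2 libraries, against 45.3 and 44.8 CPM in the scramble libraries, a log2 fold change of -0.95 ± 0.0821 (adjusted p = 3.85e-13). The laminin chains LAMC1 and LAMB1 changed by -0.41 ± 0.0404 and -0.40 ± 0.0432. Among 22 receptor tyrosine kinases 6 rose (27.3%) and 4 fell (18.2%), and in the 12-library fit 1 rose and 1 fell. ROR2, a receptor for WNT5A, had 17.9 and 18.4 CPM in the shRNA 2 libraries, against 9.67 and 9.47 CPM in the scramble libraries. Its change was 0.92 ± 0.121 (adjusted p = 3.25e-08). Of 27 genes of TGF-beta signalling 12 rose (44.4%) and 6 fell (22.2%), with a median of 0.12. In the 12-library fit 3 rose and 2 fell. KLF10, an early target, had 104 and 106 CPM in the shRNA 2 libraries, against 61.6 and 60.5 CPM in the scramble libraries and changed by 0.78 ± 0.0578. TGFBR2, a receptor, changed by 0.52 ± 0.0477, while SMAD3, a signal transducer, had 111 and 102 CPM in the shRNA 2 libraries, against 139 and 145 CPM in the scramble libraries and changed by -0.42 ± 0.0527 (adjusted p = 1.18e-08). Among 25 YAP/TAZ targets and partners 4 rose (16%) and 9 fell (36%). WWTR1, which encodes TAZ itself, had 41.5 and 38.5 CPM in the shRNA 2 libraries, against 69.4 and 72.9 CPM in the scramble libraries, a log2 fold change of -0.83 ± 0.0673 (adjusted p = 5e-14), and CRIM1, which binds bone morphogenetic proteins, and CYR61, a secreted matricellular protein, changed by -0.60 ± 0.0478 and -0.38 ± 0.0386.

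Genes of lipid synthesis were lower or not called, apart from 1. Of 25 cholesterol synthesis genes 10 fell (40.0%, against 14.9% of all genes) and none rose, with a median of -0.057; over vector 8 fell and 5 rose. SQLE, squalene epoxidase, had 154 and 151 CPM in the shRNA 2 libraries, against 258 and 254 CPM in the scramble libraries, without overlap and with a log2 fold change of -0.75 ± 0.0465 (adjusted p = 7.38e-18). DHCR7, which makes cholesterol from its last precursor, had 19.5 and 20.4 CPM in the shRNA 2 libraries, against 37.5 and 38.5 CPM in the scramble libraries, a change of -0.93 ± 0.0857. CYP51A1, a sterol demethylase, changed by -0.75 ± 0.0637. Of 22 genes of fatty acid synthesis and elongation 10 fell (45.5%) and 1 rose (4.55%), with a median of -0.18. SCD, a desaturase, had 92.0 and 98.9 CPM in the shRNA 2 libraries, against 166 and 168 CPM in the scramble libraries, a change of -0.81 ± 0.0517 (adjusted p = 2.27e-17). ELOVL4, an elongase of very long chains, had 3.36 and 2.94 CPM in the shRNA 2 libraries, against 8.14 and 10.6 CPM in the scramble libraries, among the largest decreases at -1.58 ± 0.188 (adjusted p = 3.13e-09). ACACA, acetyl-CoA carboxylase, changed by -0.63 ± 0.0839.

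Chaperones of the endoplasmic reticulum fell more often than they rose over scramble, 13 (52.0%) against 5 (20.0%) of 25, with a median of -0.16 and all genes at 14.9% and 16.7%. Over vector 10 fell and 9 rose, with a median of 0.023. CALR, calreticulin, had 903 and 941 CPM in the shRNA 2 libraries, against 1396 and 1331 CPM in the scramble libraries, a log2 fold change of -0.56 ± 0.0404 (adjusted p = 9.72e-16). HYOU1, PDIA4 and HSP90B1 changed by -0.54 ± 0.0466, -0.47 ± 0.0442 and -0.35 ± 0.037. Of 21 genes of MHC class I presentation 14 fell (66.7%) and none rose, with a median of -0.20; CALR and PDIA3, which assist the loading of peptides, stand in this list too. HLA-B and HLA-C changed by -0.27 ± 0.0373 and -0.32 ± 0.0404. In the 12-library fit 2 members of the list fell, beside 555 of all genes. There the adjusted p was 0.305 for HLA-B and 0.194 for HLA-C. These genes are close in sequence, so reads may have been split between them. Over vector, 8 members of the list rose and 2 fell, with a median of 0.060.

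Serine synthesis and ATF4 response genes were split, 7 rising (24.1%) and 8 falling (27.6%) of 29. ALDH1L2, a mitochondrial folate enzyme, had 36.8 and 38.2 CPM in the shRNA 2 libraries, against 83.7 and 86.0 CPM in the scramble libraries, a log2 fold change of -1.18 ± 0.0642 (adjusted p = 6.88e-20). MTHFD2, another enzyme of that pathway, had 88.3 and 84.2 CPM in the shRNA 2 libraries, against 138 and 139.9 CPM in the scramble libraries, a change of -0.69 ± 0.0543. CEBPB, a transcription factor, rose at 0.47 ± 0.0467 (adjusted p = 2.35e-11). Over vector 21 of the 29 fell and 2 rose, with a median of -0.65. Of 23 NRF2 targets 8 fell (34.8%) and 2 rose (8.70%), with a median of -0.12. NQO1, a quinone reductase, had 34.7 and 34.4 CPM in the shRNA 2 libraries, against 62.7 and 62.6 CPM in the scramble libraries, with 129 and 124 CPM in vector, and its change was -0.86 ± 0.0679 (adjusted p = 2.42e-14). FTH1, the ferritin heavy chain, went the other way with 5409 and 5689.6 CPM in the shRNA 2 libraries, against 3861 and 3654 CPM in the scramble libraries, a change of 0.56 ± 0.0373 (adjusted p = 7.47e-17). Among 21 heat shock genes 3 rose (14.3%, near the 16.7% of all genes) and 7 fell (33.3%, against 14.9%), while over vector 7 rose and 4 fell; HSP90AA1, the inducible HSP90, had 299 and 285 CPM in the shRNA 2 libraries, against 455 and 456 CPM in the scramble libraries and changed by -0.64 ± 0.0427 (adjusted p = 7.6e-17).

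Inflammatory genes moved in both directions over scramble. Of 33 NF-kB targets and cytokines 11 rose (33.3%) and 6 fell (18.2%), with a median of 0.00069. PTGS2, cyclooxygenase 2, had 755 and 717 CPM in the shRNA 2 libraries, against 357 and 384 CPM in the scramble libraries, with 262 and 266 CPM in shRNA 1 and 92.0 and 90.4 CPM in vector. The shRNA 2 libraries were the highest, and the change was 0.99 ± 0.0433 (adjusted p = 3.11e-23). CSF1, a macrophage growth factor, had 483 and 487 CPM in the shRNA 2 libraries, against 255 and 242 CPM in the scramble libraries, a change of 0.96 ± 0.0438 (adjusted p = 1.22e-22). IL24, a cytokine, was lower than scramble but higher than vector, with 79.5 and 72.8 CPM in the shRNA 2 libraries, against 135 and 123 CPM in the scramble libraries and 22.6 and 21.3 CPM in vector. The change of IL24 was -0.76 ± 0.059 over scramble (adjusted p = 1.47e-14) and 1.80 over vector (adjusted p = 6.96e-25). ICAM1, an adhesion receptor, changed by -0.43 ± 0.0437, and CXCL8, a neutrophil attractant, by 0.39 ± 0.047 (adjusted p = 4.61e-09, and 0.0788 in the 12-library fit). Over vector 30 of the 33 rose and none fell, with a median of 0.96. The scramble libraries had their own levels for this list, between those of vector and shRNA 2 in PTGS2 and CXCL8 and above both in IL24.

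Interferon-stimulated genes, which double-stranded RNA can induce, had 3 of 31 rising (9.68%, against 16.7% of all genes) and 1 falling (3.23%, against 14.9%), with a median of -0.060. Over vector 9 rose and 3 fell, with a median of 0.11. STAT2, a signal transducer of interferon, changed by 0.19 ± 0.0485 (adjusted p = 0.00166, and 0.250 in the 12-library fit). GBP5, a guanylate-binding protein outside this count, was among the largest decreases, with 2.34 and 3.16 CPM in the shRNA 2 libraries, against 8.06 and 7.62 CPM in the scramble libraries and a log2 fold change of -1.50 ± 0.198 (adjusted p = 3.71e-08). Of 13 genes of the RNA interference machinery 3 rose (23.1%) and 1 fell (7.69%), beside 16.7% and 14.9% of all genes. AGO2, the slicing Argonaute, had 81.1 and 73.8 CPM in the shRNA 2 libraries, against 41.8 and 45.9 CPM in the scramble libraries, with 67.9 and 68.1 CPM in shRNA 1 and 59.0 and 61.6 CPM in vector. It changed by 0.82 ± 0.0668 over scramble (adjusted p = 6.9e-14) and 0.36 over vector. DGCR8, the partner of Drosha, changed by 0.62 ± 0.11 (adjusted p = 1.38e-05).

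Among 24 AP-1 and immediate early genes 7 rose (29.2%) and 2 fell (8.33%), with a median of 0.044. With scaling by totals only 7 rose and 4 fell, and in the 12-library fit 1 rose and 0 fell. EGR1, an early growth response factor, had 155 and 156 CPM in the shRNA 2 libraries, against 124 and 119 CPM in the scramble libraries and changed by 0.36 ± 0.0507 (adjusted p = 1.91e-07). Of 21 MAPK feedback genes 8 rose (38.1%) and 3 fell (14.3%). DUSP6, an ERK phosphatase, had 99.8 and 105 CPM in the shRNA 2 libraries, against 72.6 and 72.7 CPM in the scramble libraries, a change of 0.50 ± 0.0578 (adjusted p = 1.81e-09), and ETV5, a target of ERK signalling, changed by -0.40 ± 0.066 (adjusted p = 3.04e-06). Regulators of G protein signalling counted 4 falls (36.4%) and no rise among 11, and over vector 5 rose (45.5%) and 2 fell (18.2%). RGS4 had 6.25 and 4.56 CPM in the shRNA 2 libraries, against 9.98 and 12.9 CPM in the scramble libraries, a change of -1.09 ± 0.161 (adjusted p = 4.2e-07).

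Ribosomal protein genes had small increases whose count rests on the scaling. Of 73 cytosolic ribosomal protein genes 21 rose (28.8%, against 16.7% of all genes) and none fell, with a median of 0.088, but scaling by totals only left 3 higher and 1 lower. The number rising was 2 without the second shRNA 2 library or without the second scramble library, and 1 in the 12-library fit. Over vector 68 rose (93.2%) and 1 fell, with a median of 0.35. RPL13A was the strongest, with 234 and 238 CPM in the shRNA 2 libraries, against 169 and 170.2 CPM in the scramble libraries and a log2 fold change of 0.48 ± 0.0461 (adjusted p = 1.03e-11); this gene has many processed copies. Of 31 proteasome subunits 1 rose (3.23%) and 3 fell (9.68%), with a median of -0.016. Over vector 8 rose (25.8%) and 12 fell (38.7%).

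The largest decreases by the naming rule were led by C14orf37, with 2.19 and 1.98 CPM in the shRNA 2 libraries, against 6.99 and 6.20 CPM in the scramble libraries and a log2 fold change of -1.65 ± 0.225 (adjusted p = 6.56e-08). CLU, the secreted chaperone clusterin, had 7.03 and 7.28 CPM in the shRNA 2 libraries, against 19.5 and 18.8 CPM in the scramble libraries, with 11.4 and 11.5 CPM in shRNA 1 and 19.2 and 16.3 CPM in vector. The shRNA 2 libraries were the lowest of the 8, and the change was -1.42 ± 0.128 over scramble and -1.30 over vector. USP28, a deubiquitinase known to stabilise MYC, was low with shRNA 2 alone. It had 16.7 and 16.0 CPM in the shRNA 2 libraries, against 37.2 and 41.2 CPM in the scramble libraries, with 40.6 and 37.8 CPM in shRNA 1 and 38.1 and 39.6 CPM in vector. Its log2 fold change was -1.26 ± 0.0907 over scramble (adjusted p = 1.15e-15), -1.25 over vector and -1.26 over shRNA 1. TXNDC16, a thioredoxin-domain protein, was likewise low with shRNA 2 alone, at 4.14 and 3.53 CPM in the shRNA 2 libraries, against 9.52 and 10.8 CPM in the scramble libraries, with 9.02 and 12.7 CPM in shRNA 1 and 11.5 and 14.3 CPM in vector. VEPH1 changed by -1.19 ± 0.0867 over scramble and -1.48 over vector. By contrast CREB5, a transcription factor, had 6.02 and 6.69 CPM in the shRNA 2 libraries, against 14.3 and 15.2 CPM in the scramble libraries, and the vector libraries, at 6.49 and 7.32 CPM, lay close to those of shRNA 2. TTC29 had 3.20 and 3.01 CPM in the shRNA 2 libraries, against 7.75 and 7.27 CPM in the scramble libraries and 1.37 and 1.77 CPM in vector, so its change was -1.27 ± 0.201 over scramble and 0.96 over vector. Among abundant genes ACTG1, gamma actin, had 8584 and 8731 CPM in the shRNA 2 libraries, against 6550.4 and 6318 CPM in the scramble libraries, and PLEC, the cytolinker plectin, had 5822 and 5690.1 CPM in the shRNA 2 libraries, against 3961 and 3891 CPM in the scramble libraries. They changed by 0.43 ± 0.0345 and 0.55 ± 0.0395. TMEM123 fell by little, at -0.23 ± 0.0353 (adjusted p = 8.76e-07, and 0.417 in the 12-library fit).

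Over vector, the other control of the arm, 6066 genes (46.7%) were called with shRNA 2. The 2 controls themselves differed: scramble over vector called 5462 genes (42.1%; 19.9% higher and 22.2% lower), against the 4091 of shRNA 2 over scramble.

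The hairpins were compared directly in the same fit. Between shRNA 2 and shRNA 1, 5038 genes (38.8%) were called, 20.1% higher and 18.7% lower with shRNA 2; higher calls were 51.9% of these, and 40.4% with scaling by totals only. This contrast tests the difference between the hairpins' effects over scramble, since scramble cancels. For shRNA 1 over scramble 4304 genes (33.2%) were called, 16.2% higher and 16.9% lower. With opposite calls over the shared scramble libraries, 312 genes (2.40% of those tested) were higher with shRNA 2 and lower with shRNA 1, and 210 (1.62%) were the reverse. CDKN1A was among the 312, at 0.78 with shRNA 2 and -0.43 with shRNA 1, and its difference between hairpins was 1.2 (adjusted p = 1.18e-22). EPYC was higher with shRNA 2 than with shRNA 1 by 1.54 (adjusted p = 1.54e-09), and ELFN1 by 0.82 (adjusted p = 0.000921).

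SERPINB2 differed most in the higher direction by the naming rule, with 26.8 and 28.7 CPM with shRNA 2, against 4.12 and 4.17 CPM with shRNA 1. Its log2 difference was 2.74 (adjusted p = 4.53e-20), and the scramble libraries lay between the hairpins. GPR84, a receptor for fatty acids, had 10.4 and 9.997 CPM with shRNA 2, against 2.06 and 4.37 CPM with shRNA 1, and G0S2, an inhibitor of lipolysis, had 117 and 118 CPM with shRNA 2, against 35.6 and 38.5 CPM with shRNA 1. The log2 differences were 1.70 and 1.67; over scramble the 12-library fit gave an adjusted p of 0.0673 for GPR84 and 0.201 for G0S2. GCH1, the entry enzyme of tetrahydrobiopterin synthesis, differed by 1.61 between the hairpins and was not called over scramble (adjusted p = 0.0973). In the lower direction PSAT1, a serine synthesis enzyme, had 6.80 and 8.09 CPM with shRNA 2, against 30.5 and 25.7 CPM with shRNA 1, a log2 difference of -1.92 (adjusted p = 2.49e-17). PAPPA2, a protease of IGF-binding proteins, had 6.33 and 5.44 CPM with shRNA 2, against 21.7 and 18.1 CPM with shRNA 1, a log2 difference of -1.77, and 0.144 was its adjusted p over scramble in the 12-library fit. CADPS and GPD1L differed by -1.79 and -1.78. DMBT1, a mucin-like scavenger receptor, had 1.17 and 1.03 CPM with shRNA 2, against 4.38 and 5.79 CPM with shRNA 1, a log2 difference of -2.19 (adjusted p = 5.68e-08), and did not pass the test over scramble (adjusted p = 0.225).

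**Figure D5:**
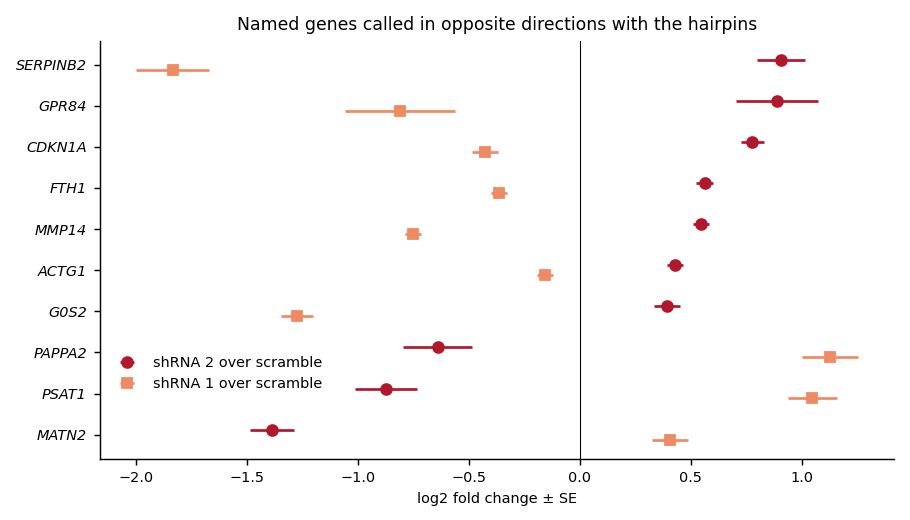
Log2 fold change over scramble with its SE (horizontal) for 10 named genes (vertical) called in opposite directions with shRNA 2 (circles) and shRNA 1 (squares), which share the scramble libraries. SERPINB2 stands at 0.91 with shRNA 2 and -1.83 with shRNA 1, and MATN2 at -1.39 and 0.41.

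By list, the calls between the hairpins lay in 1 direction for inflammatory and for mitotic genes, and for some smaller lists. Of all tested genes 20.1% were higher and 18.7% lower with shRNA 2. Of 33 NF-kB targets and cytokines 25 (75.8%) were higher with shRNA 2 than with shRNA 1 and none lower. Their median log2 difference was 0.56. Of 38 G2/M and mitosis genes 30 were lower (78.9%) and none higher, with a median of -0.30. Among 11 tested genes of the TXNIP and arrestin-domain list 7 were higher (63.6%) and none lower. Of 11 regulators of G protein signalling 4 were higher (36.4%) and none lower. In G1/S and replication genes 3 of 31 were higher (9.68%) and 15 lower (48.4%), with a median of -0.33. Over scramble, shRNA 1 gave 6 rising and 6 falling G2/M genes (15.8% each, against 16.2% and 16.9% of all genes). With shRNA 2, 0 rose and 30 fell. Hypoxia genes called over scramble were 19 higher and 5 lower with shRNA 2 (55.9% and 14.7%). With shRNA 1, 18 were higher and 6 lower (52.9% and 17.6%). Between the hairpins 12 were higher with shRNA 2 and 5 lower (35.3% and 14.7%), with a median of 0.075.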

How the data were processed

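Messenger RNA libraries of LMSU cells were prepared with a Roche Kapa mRNA kit, per the labels' protocols. Reads were handled with bcl2fastq and STAR 2.5 on hg19, per the submitters' processing notes; no source used here gives the counting mode, strand setting or annotation. The deposited table, made by the authors, holds raw read counts for 25435 genes in 12 libraries, with no normalisation.

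From the counts of the 8 knockdown-arm libraries, genes were kept with edgeR 4.0.16's filterByExpr (minimum count 10), normalised by TMM, and tested with the quasi-likelihood test, 1 coefficient per group, leaving 4 residual degrees of freedom (R 4.3.3). P-values are two-sided, and adjusted p-values are Benjamini-Hochberg values over all 12980 genes; a gene is called at an adjusted p under 0.05. The SE is the size of the log2 fold change divided by the square root of F. The fit was tested on simulated data. Percentages of called genes are over all tested genes.

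EPYC, ELFN1, CDKN1A and MDM2 were named first. Then came, among called genes with groups that do not overlap and a mean of at least 5 CPM in the higher group, the 12 largest log2 fold changes and the 5 largest CPM differences in each direction. The rule added up to 5 called members per list by smallest p, and 5 in each direction for shRNA 2 over shRNA 1. From these the text names most. Members and the 40 gene lists, written from general knowledge, were chosen with earlier results of these data known. Deviations of same-numbered libraries correlated between -0.061 and 0.038 over the pairs of groups.

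The alternatives were other scalings, filters and thresholds, DESeq2 1.42.0, limma 3.58.1 voom, other library sets, a replicate block, and leaving out each library. Promoter sequences are from RefSeq, build GRCh38.p14. The targeted gene's own level and some other genes are not reported here, so the labels are not checked against that gene, and it is not plotted. These genes were kept in the fit and in the counts.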

Additional observations from a re-analysis of the deposited data

Results flagged for a closer look

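For 10 named genes the effects of the hairpins over the shared scramble libraries were called in opposite directions, and the difference between shRNA 2 and shRNA 1 was itself tested in the 8-library edgeR fit. Higher with shRNA 2 than with shRNA 1 were SERPINB2 by a log2 difference of 2.74 (adjusted p = 4.53e-20), GPR84 by 1.70 (adjusted p = 1.69e-08) and G0S2 by 1.67 (adjusted p = 3.81e-24). Smaller differences in that direction were found for MMP14 at 1.30 (adjusted p = 5.58e-30), CDKN1A at 1.2 (adjusted p = 1.18e-22), FTH1 at 0.93 (adjusted p = 1.58e-24) and ACTG1 at 0.585 (adjusted p = 9.97e-19). Lower with shRNA 2 were PSAT1 at -1.92 (adjusted p = 2.49e-17), MATN2 at -1.79 (adjusted p = 6.85e-20) and PAPPA2 at -1.77 (adjusted p = 1.29e-14). Each of the 10 differences had the 2 shRNA 2 libraries apart from the 2 shRNA 1 libraries. For SERPINB2, GPR84, G0S2, PSAT1 and PAPPA2 this was a condition of being named. All 10 were flagged only because their difference was called, so neither trait is separate support.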

How the results depend on the processing

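Relative to the 4091 genes called for shRNA 2 over scramble, the count was 1034 with all 12 libraries, 2688 with DESeq2 and 1057 when a fold beyond 1.2 was required. The 12-library fit had a biological coefficient of variation of 9.55%; the cause of the lower DESeq2 count was not tested, and a fold limit is stricter by construction. Over vector, 6066 became 2801 with 12 libraries and 2686 with the fold limit; over shRNA 1, 5038 became 1909 and 1821. Leaving out 1 library gave 3030 to 3377 genes over scramble, 4943 to 5095 over vector and 3978 to 4371 over shRNA 1, with the lone library assumed to vary like the other groups. The replicate block gave 3915, 5890 and 4856 genes and ended the call of 1 named gene, PSMD3 (adjusted p = 0.0597). Same-numbered libraries correlated at -0.061 between shRNA 2 and scramble. This ran over all tested genes, where counting noise pulls a correlation toward 0, so a small joint deviation could be missed. The labels do not say whether the numbers stand for a shared culture or preparation. Of 192 genes picked by the naming rule 189 were called over scramble, 121 kept direction and side of the threshold under every alternative run, and none changed sign. With 2 libraries a group, the median SE of a log2 fold change was 0.095, which limits what low genes can show.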

Other observations

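In the knockout arm, which had no doxycycline and entered no comparison here, raw counts were low for the genes that led the increases with shRNA 2. EPYC had 1 and 2 counts in the p53 knockout libraries, against 1 and 1 in the knockout control libraries. ELFN1 had 15 and 8 counts in the p53 knockout libraries, against 18 and 15 in the knockout control libraries. CDKN1A had 504 and 682 counts in the p53 knockout libraries, against 753 and 510 in the knockout control libraries, where the groups overlapped. MDM2 had 930 and 869 counts in the p53 knockout libraries, against 633 and 793 in the knockout control libraries. Library totals were 11998608 and 13538425 in the p53 knockout libraries, against 13666562 and 10351171 in the knockout control libraries. Raw counts take no account of these totals. The second knockout control library had the smallest total of this arm, so the raw counts do not show whether the MDM2 groups differ.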
